A study of Arabidopsis thaliana with 6 samples.

Results

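*GLK1* (AT2G20570), *GLK2* (AT5G44190) and *LHCB4.1* (AT5G01530), 3 genes of chloroplast development, were compared between *gis5* mutant and wild type (WT) seedlings on Affymetrix ATH1 arrays. Each gene had 1 named probe set, so that 3 of the 22746 probe sets tested are described here. The probe sets of *GLK1* and *GLK2* were named through S1 Table of the paper, read only in its leading rows, which hold the larger differences between the genotypes, and that of *LHCB4.1* through the annotation of the array. The differences of *GLK1* and *GLK2* are therefore not independent evidence. The *gis5* line carries an EMS-induced point mutation in *POLD1*, which encodes the catalytic subunit of the replicative DNA polymerase δ, was backcrossed to WT, and shares the Columbia background with the WT seedlings. RNA came from whole 10-d-old seedlings, leaves and roots together, grown on MS plates under continuous light at 24°C by the methods and 23°C by the description of the series. There were 3 biological replicates of each genotype and 1 array per replicate, and *gis5* is a single mutant line.

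GOLDEN2-LIKE (GLK) proteins are transcription factors of the GARP family that act in the nucleus to switch on genes for chlorophyll synthesis and for the light-harvesting antenna. *GLK1* and *GLK2* are partly redundant, and plants that lack both are pale. *LHCB4.1* is one of the antenna genes. Together with its paralogs *LHCB4.2* (AT3G08940) and *LHCB4.3* (AT2G40100) it encodes a minor antenna protein, a chlorophyll-binding protein between the major light-harvesting complex and the core of photosystem II.

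The values are linear MAS5 signals, which have no absolute unit and are compared here only between arrays for the same probe set. Ratios are differences of mean log2(signal + 16), tested with limma over all 6 arrays, with Benjamini-Hochberg adjustment over all 22746 probe sets. The arrays had median signals of 187, 191 and 185 in *gis5* and 178, 174 and 182 in WT. Every *gis5* median thus lay above every WT median, and the arrays were not rescaled. Any pair of arrays correlated with r between 0.958 and 0.974 on log2 signals. For RNA quality, the actin control had 3′ over 5′ ratios from 4.39 to 4.99 in *gis5* and from 3.30 to 6.42 in WT. In either direction 1 of the 22746 probe sets passed an adjusted p of 0.05, 0.0044%, and none of the 3 genes did. Among the probe sets above the median signal alone 0.958% passed, and the 3 genes had adjusted p = 0.13, 0.14 and 0.26 in limma. At an unadjusted p under 0.05, 3.06% of all probe sets were lower in *gis5*, and all 3 genes were among them. This was 696 probe sets lower and 1363 higher, with 1133 and 968 once arrays were centred on their medians and 925 and 1064 after quantile normalization. Precision is limited by the number of arrays. With 3 arrays against 3 an exact two-sided permutation test of a single gene cannot go below p = 0.1, the value each of the 3 genes reached.

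Both transcription factor genes had lower signals in *gis5*, at about the same proportion of WT. *GLK1* read 816, 923 and 1025 in *gis5* replicates 1 to 3 and 1278, 1403 and 1312 in the WT replicates. Every *gis5* array lay below every WT array, with a gap of 253 between the closest arrays. For *GLK1* the *gis5* mean was 921 ± 105 (SD, n = 3) against 1331 ± 64.3 (SD, n = 3) for WT, so that *gis5* had 69.2% of the WT signal. The log2 ratio was −0.53 (95% interval −0.90 to −0.16, adjusted p = 0.41 from limma, unadjusted p = 0.0119). *GLK2* read 1366, 1435 and 1171 in *gis5* and 1841, 1817 and 2034 in WT. Here too the groups did not overlap, with a gap of 382. For *GLK2* the *gis5* mean was 1324 ± 137 (SD, n = 3) against 1897 ± 119 (SD, n = 3) for WT, 69.8% of the WT signal. The log2 ratio was −0.52 (95% interval −0.89 to −0.15, adjusted p = 0.42 from limma, unadjusted p = 0.0130).

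The order of the *gis5* arrays was not shared by the pair: *GLK1* was lowest in *gis5* replicate 1 and *GLK2* in *gis5* replicate 3. The log2 ratios of *GLK1* and *GLK2* differed by −0.011, and an exact permutation test of the within-array difference gave p = 0.90 (adjusted p = 0.90 over the 4 differences tested). Neither gene reached the thresholds of the methods, a p under 0.05, taken here as unadjusted because the methods do not say, together with a change of at least 1 on the log2 scale. On the lower side 0.541% of all probe sets met them.

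*LHCB4.1*, the antenna gene, also had a lower signal in *gis5*, by a smaller proportion. It read 23519, 25937 and 23849 in *gis5* and 32693, 28582 and 34982 in WT. The groups did not overlap, and WT replicate 2 was the WT array nearest to *gis5*. For *LHCB4.1* the *gis5* mean was 24435 ± 1311 (SD, n = 3) against 32086 ± 3243 (SD, n = 3) for WT, 76.2% of the WT signal. The log2 ratio was −0.39 (95% interval −0.75 to −0.025, adjusted p = 0.52 from limma, unadjusted p = 0.0396). Leaving out any 1 array other than WT replicate 2 took this unadjusted p above 0.05. The *GLK1* log2 ratio was lower than that of *LHCB4.1* by 0.14 and the *GLK2* ratio by 0.13. Exact permutation tests over the arrays, which cannot go below p = 0.1 here, gave p = 0.50 for the difference of −0.14 and p = 0.30 for that of −0.13 (adjusted p = 0.67 and 0.60).

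**Figure D1:**
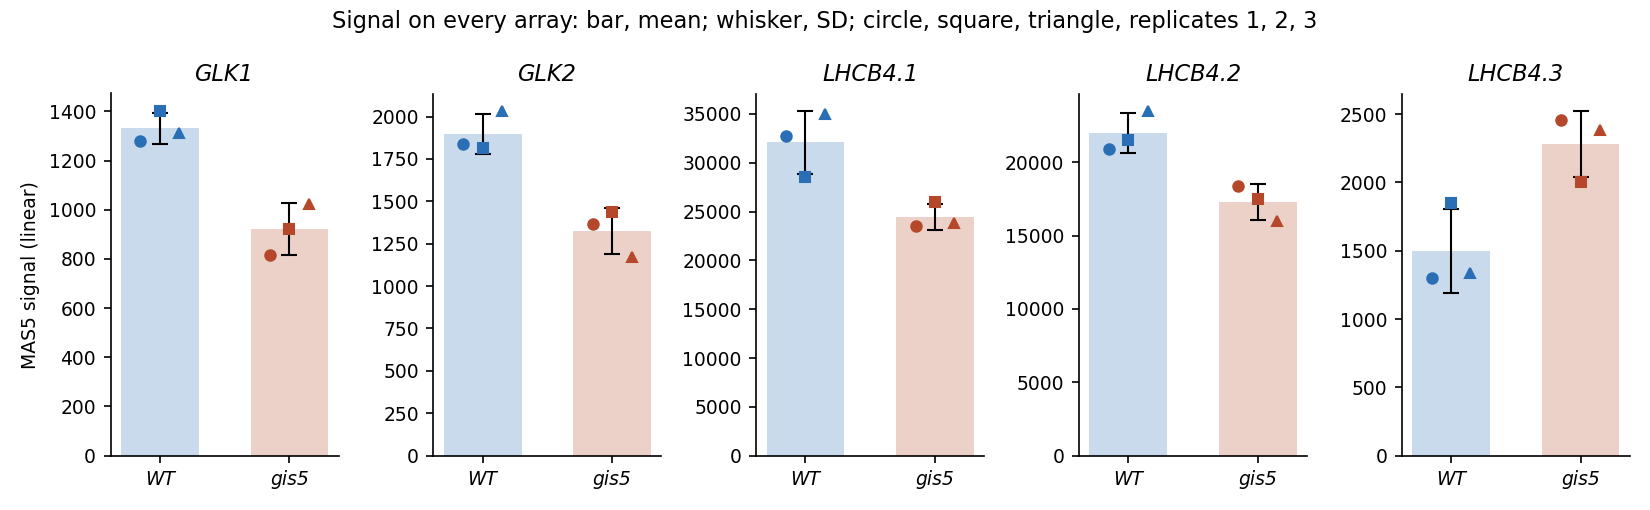
MAS5 signal (linear axis from 0) of *GLK1*, *GLK2*, *LHCB4.1* and the paralogs *LHCB4.2* and *LHCB4.3* on each of the 3 WT (blue) and 3 *gis5* (red) arrays; bars are means, whiskers SD, and circles, squares and triangles mark replicates 1, 2 and 3. The *gis5* arrays lie below every WT array for the first 4 genes and above every WT array for *LHCB4.3*.

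The paralogs of *LHCB4.1* differed from each other in direction. *LHCB4.2* read 18390, 17462 and 16019 in *gis5* and 20908, 21507 and 23509 in WT, and its groups did not overlap. It had a log2 ratio of −0.35 (95% interval −0.69 to 0.0025, adjusted p = 0.55 from limma), close to that of *LHCB4.1*, and cross-hybridization between these closely related genes was not tested. *LHCB4.3*, also known as *LHCB8* and the most divergent of the 3 paralogs, had the opposite sign. It read 2456, 2002 and 2385 in *gis5* and 1302, 1852 and 1336 in WT, with *gis5* replicate 2 and WT replicate 2 only 150 apart. For *LHCB4.3* the *gis5* mean was 2281 ± 244 (SD, n = 3) against 1497 ± 308 (SD, n = 3) for WT, 152% of the WT signal. The log2 ratio was 0.62 (95% interval 0.15 to 1.083, adjusted p = 0.45 from limma, unadjusted p = 0.0172), where 5.99% of all probe sets were higher at an unadjusted p under 0.05. Leaving out any 1 array other than *gis5* replicate 2 or WT replicate 2 took the unadjusted p of *LHCB4.3* above 0.05. The within-array difference between *LHCB4.3* and *LHCB4.1* on the log2 scale lay between −3.68 and −3.25 in *gis5* and between −4.69 and −3.94 in WT, without overlap. The log2 ratios of these paralogs differed by 1.005, and the exact permutation test gave p = 0.10, the smallest it can give (adjusted p = 0.40 over the 4 differences).

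The signals of *LHCB4.1* and *LHCB4.2* were in ranges where many probe sets had lower values in *gis5*. Of the 62 probe sets with a mean signal over 20000, the range of *LHCB4.1*, 54.8% had every *gis5* array below every WT array, and their median log2 ratio was −0.20. Between 10000 and 20000, the range of *LHCB4.2*, these values were 31.6% of 177 probe sets and −0.11. *GLK1*, *GLK2* and *LHCB4.3* had mean signals between 500 and 2000. There, of 4563 probe sets, 9.58% had every *gis5* array below and 9.47% every *gis5* array above every WT array, the median log2 ratio was −0.0075, and 2.78% were lower at an unadjusted p under 0.05. Over all probe sets 6.79% had every *gis5* array below every WT array and 9.13% above. Without overlap between the groups, *LHCB4.1* was thus like most probe sets of its signal range, while 4.84% of them were lower at an unadjusted p under 0.05, as it was. These signal ranges were chosen after the values were seen.

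Quantile normalization, which gives every array the same distribution of signals, brought the median log2 ratio of the probe sets over 20000 from −0.20 to −0.037. It took the log2 ratio of *LHCB4.1* to −0.20 (95% interval −0.56 to 0.16, adjusted p = 0.74 from limma, unadjusted p = 0.22) and that of *LHCB4.2* to −0.21 (95% interval −0.55 to 0.14). The ratios of *GLK1*, *GLK2* and *LHCB4.3* under the same normalization were −0.52, −0.50 and 0.63, close to their values in the deposited signals.

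**Figure D2:**
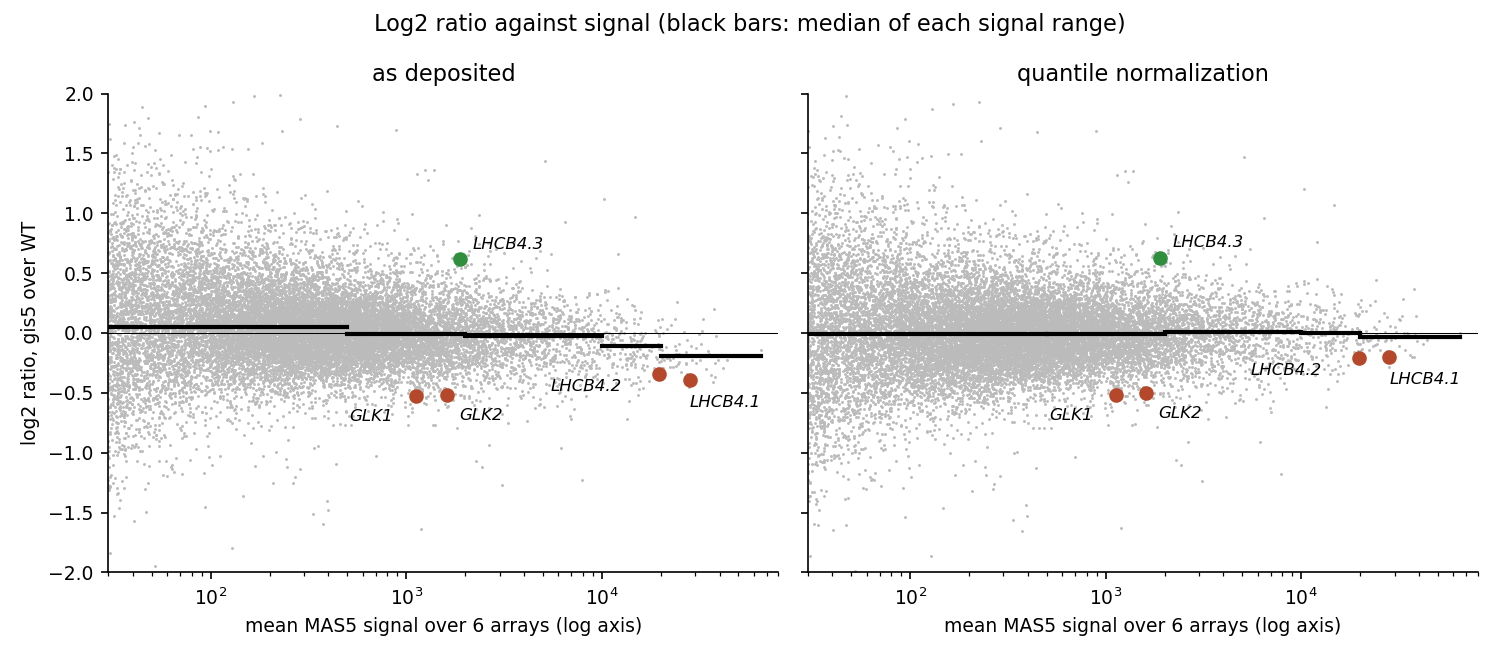
Log2 ratio of *gis5* over WT against the mean MAS5 signal over the 6 arrays (log axis) for the probe sets inside the plotted ranges (grey), in the deposited signals (left) and after quantile normalization (right); black bars are the medians of 5 ranges of signal. The medians of the brightest ranges are −0.11 and −0.20 on the left and 0.00021 and −0.037 on the right, where *LHCB4.1* and *LHCB4.2* lie nearer to 0 while *GLK1*, *GLK2* and *LHCB4.3* stay apart.

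Other regulators of chloroplast development were examined as a list of 25 genes, of which 6 had a named probe set, 5 of them through S1 Table, and 19 were not analysed here. Of these 6, counting *GLK1* and *GLK2*, 5 had a negative log2 ratio, with a median over the 6 of −0.47 against 0.026 over all probe sets tested. Nothing is read from this sign count and median, because the 5 negative members are the 5 that S1 Table, ordered by difference, made measurable. Lower signals in *gis5* at an unadjusted p under 0.05, which 3.06% of all probe sets had, were found for 3 of the 6, all of them named through S1 Table, and 3 did not pass. The one of the 3 beside the *GLK* genes was *PIF1* (AT2G20180), a phytochrome-interacting factor that restrains chlorophyll synthesis in the dark. *PIF1* read 199, 172 and 196 in *gis5* and 291, 236 and 308 in WT, with every *gis5* array below every WT array and a log2 ratio of −0.52 (SE 0.16, adjusted p = 0.45 from limma). *PIF4* (AT2G43010), a growth regulator that acts in the response to warmth, had a log2 ratio of −0.42 (SE 0.22, adjusted p = 0.63 from limma) with overlapping groups. The only member named through the array annotation was also the only one with a positive log2 ratio. This member, picked out after its value was seen, was *HYH* (AT3G17609), a homolog of the light-signalling factor gene *HY5*, at 0.20 (SE 0.16, adjusted p = 0.75 from limma).

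Chlorophyll synthesis is the pathway whose genes are best known as GLK targets beside the antenna. Of 26 genes on this list 10 were measured, 9 of them named by the array annotation, and all 10 had a negative log2 ratio, where 46.4% of all probe sets and 49.4% of those above the median signal did. The ratios lay between −0.50 and −0.11 with a median of −0.26. For 7 of the 10, every *gis5* array lay below every WT array, against 9.35% of the probe sets above the median signal, where all 10 lie. By mean signal this share was 9.58% between 500 and 2000, 15.7% between 2000 and 10000 and 31.6% between 10000 and 20000. The 7 genes were spread over these ranges. Lower signals at an unadjusted p under 0.05 were found for 2 of the 10, 1 of them named through S1 Table, against 5.39% of the probe sets above the median signal, and 8 did not pass, and none passed an adjusted p of 0.05. The 2 were *PORB* (AT4G27440), a protochlorophyllide oxidoreductase gene, and *GUN4* (AT3G59400), an activator of magnesium chelatase. *PORB* read 4337, 4538 and 4025 in *gis5* and 6097, 5408 and 6879 in WT, without overlap, and its log2 ratio was −0.50 (SE 0.16, adjusted p = 0.44 from limma). *GUN4*, named through S1 Table, read 4564, 4922 and 4239 in *gis5* and 6086, 6154 and 6293 in WT, and its log2 ratio was −0.43 (SE 0.14, adjusted p = 0.46 from limma). *HEMB1* (AT1G69740), for an early enzyme of tetrapyrrole synthesis, had −0.28 and *CHLI2* (AT5G45930), for a subunit of magnesium chelatase, −0.27. All 10 ratios stayed negative after quantile normalization, with a median of −0.22, and without *gis5* replicate 2 there were 9 negative ratios. Without *gis5* replicate 3 none of the 10 had an unadjusted p under 0.05 in limma.

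Of 21 antenna genes the 3 *LHCB4* paralogs were the only ones measured, and 18 were not analysed here. With an unadjusted p under 0.05, *LHCB4.1* was lower and *LHCB4.3* higher in *gis5*, and *LHCB4.2* did not pass. Of all probe sets 3.06% were lower and 5.99% higher at this threshold. Of 23 nuclear genes of photosystem subunits 5 were measured, all with a negative log2 ratio, where 49.4% of the probe sets above the median signal had one. The ratios lay between −0.47 and −0.18 with a median of −0.28. Only *PSAD2* (AT1G03130), for a subunit of photosystem I and named through S1 Table, had an unadjusted p under 0.05. It read 13779, 13438 and 11599 in *gis5* and 17924, 16013 and 19995 in WT, and its log2 ratio was −0.47 (SE 0.16, adjusted p = 0.47 from limma). *PSAN* (AT5G64040) and *PSAE1* (AT4G28750), also of photosystem I, had −0.32 and −0.25, and *PSBY* (AT1G67740), of photosystem II, −0.28. These signals too were in the bright ranges described above, and quantile normalization took the median of the 5 to −0.10, with none at an unadjusted p under 0.05 in limma. In carbon fixation 3 of 15 genes were measured. The Rubisco activase gene *RCA* (AT2G39730) had a log2 ratio of −0.23, *PRK* (AT1G32060) one of −0.13 and *SBPASE* (AT3G55800) one of −0.0036, none of them past an unadjusted p of 0.05.

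**Figure D3:**
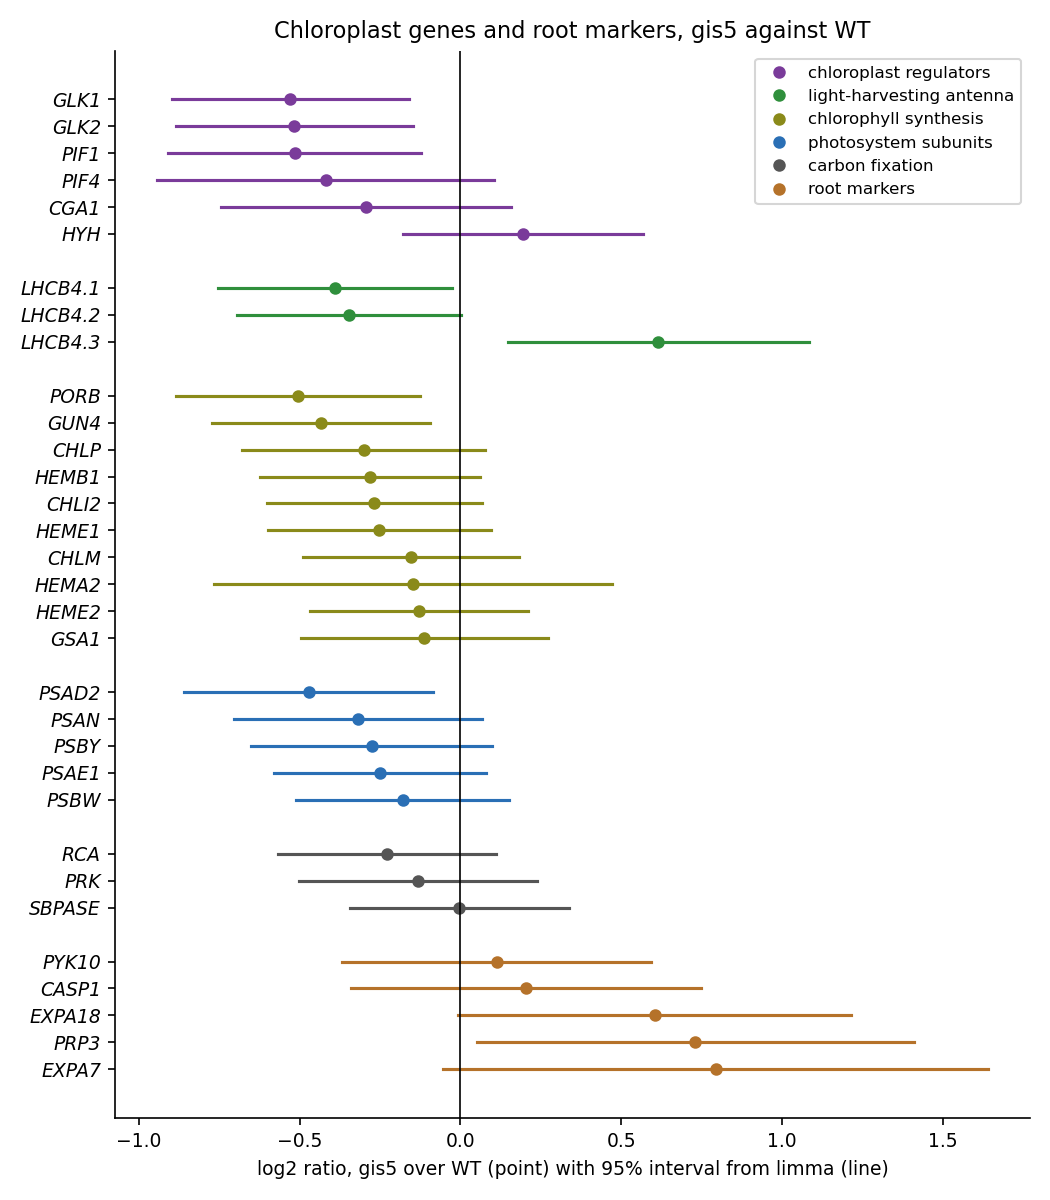
Log2 ratio of *gis5* over WT (points) with 95% intervals from limma (lines) for every measured gene of the lists of chloroplast regulators, antenna, chlorophyll synthesis, photosystem subunits, carbon fixation and root markers, coloured by list. The points of chlorophyll synthesis and photosystem subunits all lie below 0, *LHCB4.3* and *HYH* lie above it, and the 5 root markers lie above it.

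Chlorophyll breakdown and leaf senescence, in which GLK levels are known to matter, had 3 measured genes of 13. *CLH1* (AT1G19670), a chlorophyllase gene named through S1 Table, had a log2 ratio of −0.48 (SE 0.16, adjusted p = 0.46 from limma). *NOL* (AT5G04900), for a chlorophyll *b* reductase, had −0.17, and *WRKY53* (AT4G23810), a transcription factor gene of early senescence, had 0.52 with overlapping groups (adjusted p = 0.72 from limma).

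Whole seedlings hold both green and root tissue, and fewer green cells and less RNA per cell cannot be told apart in these samples. Of 13 root markers 5 were measured, 2 of them named through S1 Table, and all 5 had a positive log2 ratio, where 53.6% of all probe sets did, 1 of the 5 at an unadjusted p under 0.05, against 5.99% of all probe sets on the higher side. Without any 1 array this count lay between 0 and 3, reaching 3 without WT replicate 1, where 1 marker turned negative. With all 6 arrays the marker past it was *PRP3* (AT3G62680), a root hair cell wall gene named through S1 Table, at 0.73 (adjusted p = 0.52 from limma). No marker named by the array annotation passed. The root hair expansin genes *EXPA7* (AT1G12560) and *EXPA18* (AT1G62980) had 0.79 and 0.60, with 95% intervals that included 0. The Casparian strip gene *CASP1* (AT2G36100), also named through S1 Table, had 0.20, and *PYK10* (AT3G09260) had 0.11. For all 5 markers the *gis5* and WT arrays overlapped. The summed signal of the 5 markers lay between 21192 and 24989 in *gis5* and between 17004 and 23967 in WT. Most of this sum came from *PYK10*, and without it the sums were 2214, 1944 and 2789 in *gis5* and 2009, 1381 and 1807 in WT. The lowest single signal was 60.0, from *EXPA7* in WT replicate 2, below the median signal of every array. *EXPA7* was also the only 1 of the 5 markers not above the median signal of all probe sets. The part of tissue proportions in the differences of *GLK1*, *GLK2* and *LHCB4.1* was not tested.

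**Figure D4:**
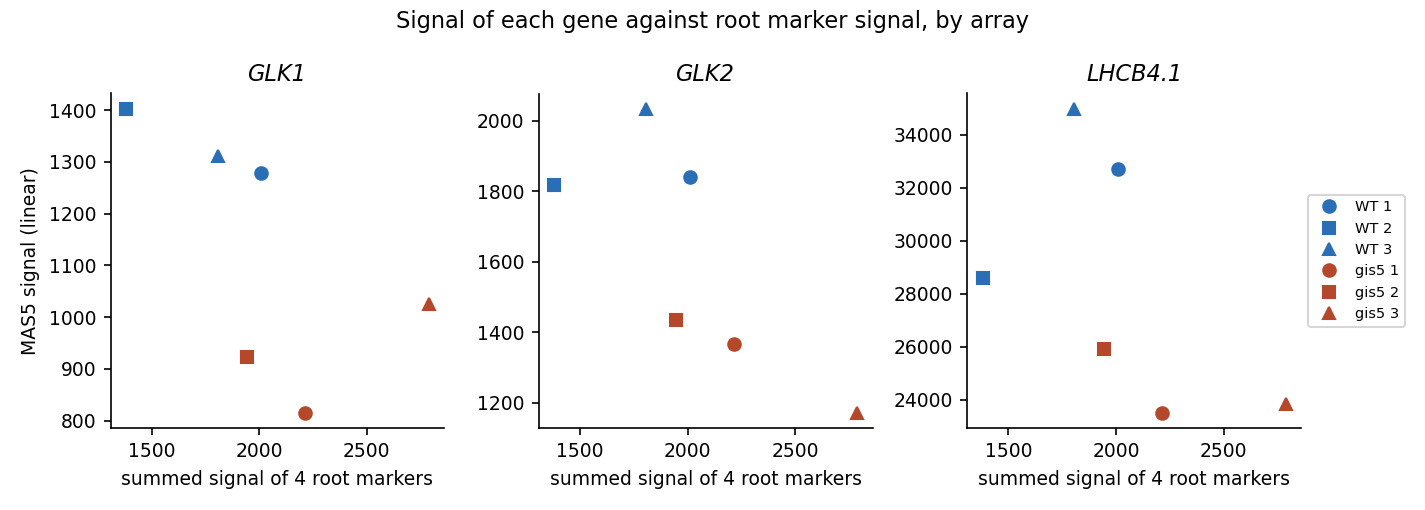
MAS5 signal (linear, axes not from 0) of *GLK1*, *GLK2* and *LHCB4.1* on each array against the summed signal of 4 root markers (*EXPA7*, *EXPA18*, *PRP3* and *CASP1*), for WT (blue) and *gis5* (red). The groups overlap on the horizontal axis, from 1381 to 2009 in WT and from 1944 to 2789 in *gis5*, and not on the vertical axis.

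Seed storage and flower transcripts also varied between the arrays. The summed signal of 3 measured seed markers of 9, all named through S1 Table, came to 168, 1210 and 662 in *gis5*, against 178, 209 and 175 in WT, with single signals down to 2.29. That of 2 flower markers of 4, *AG* and *PI*, also named through S1 Table, came to 182, 420 and 182 in *gis5*, against 122, 156 and 134 in WT. Without *gis5* replicate 2, where both sums were highest, the log2 ratios of *GLK1*, *GLK2* and *LHCB4.1* were −0.53, −0.58 and −0.43, and the part of seed and flower tissue in the differences was not tested.

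The probe sets whose log2 signal followed each gene most closely over the 6 arrays were sought among 6537 named probe sets above the median signal, as a description, since the 2 genotypes alone give high correlations. For *GLK1* they were AT4G01870 (r = 0.989), AT2G37500 (r = 0.988) and AT3G18870 (r = 0.984). For *GLK2* they were *VPS46.2* (AT1G73030) with r = 0.994, the oleate desaturase gene *FAD2* (AT3G12120) with r = 0.990 and the cuticle gene *BDG1* (AT1G64670) with r = 0.987, the latter pair named through S1 Table. For *LHCB4.1* they were AT3G11880 (r = 0.998), *scpl26* (AT2G35780) with r = 0.998 and AT5G12410 (r = 0.993). A correlation of at least 0.95 was reached by 20 of the 6537 probe sets with *GLK1*, 68 with *GLK2* and 57 with *LHCB4.1*. Between the genes themselves, *GLK2* and *LHCB4.1* had r = 0.93, *GLK1* and *LHCB4.1* r = 0.80 and *GLK1* and *GLK2* r = 0.79, while *LHCB4.1* and *LHCB4.3* had r = −0.98.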

How the data were processed

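The values used are linear signal intensities for 6 arrays, made by the authors with MAS5 according to the submitters' notes (version not given) and scaled so that array means, trimmed at both ends, are about 496. The paper's gene list was made with RMA, a different summary not used here. Of the S1 Table only probe set and locus columns were read. From the intensities log2(signal + 16) was computed. Arrays were not rescaled, their medians lying within 9.53% of each other. After removal of 64 controls, 22746 probe sets were fitted in R 4.3.3 with limma 3.58.1 (lmFit, then eBayes), genotype being the only term. The pseudocount understates changes of dim probe sets. The code of the fit was run on simulated arrays with independent normal noise and planted changes. Those arrays lacked the lower values of bright probe sets in *gis5*, so that run checked only the code.

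Names came from GEO's platform annotation, brought up to date with RefSeq genes of TAIR10.1 (13436 with a single gene, 77 by name alone), then S1 Table (851). Another 503 matched several genes and 7879 stayed unnamed. No coordinates or sequences are given. Genes with several probe sets were counted by the brightest. The text names the 3 genes, their paralogs, the members of each list that had the smallest p (at most 4), and the 3 closest patterns per gene. *HYH* and *PYK10* were named outside this rule, after their values were seen. Members and lists were chosen with earlier results of these data known. The methods call the replicates biological and do not say whether they were grown separately, so that p-values measure the spread between these arrays. Alternatives were quantile normalization, median centring, the replicate block, each array left out, other pseudocounts, filters on probe sets and other variance models.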

Additional observations from a re-analysis of the deposited data

How the results depend on the processing

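*GLK1*, *GLK2* and *LHCB4.1* kept a negative log2 ratio, and stayed above an adjusted p of 0.05 in limma, in all 15 alternatives run for each. The ratios lay between −0.61 and −0.45 for *GLK1* (adjusted p between 0.11 and 0.63), between −0.59 and −0.43 for *GLK2* (0.11 to 0.74) and between −0.47 and −0.20 for *LHCB4.1* (0.11 to 0.81). The unadjusted p from limma was under 0.05 in all 15 for *GLK1*, in 14 for *GLK2* and in 8 for *LHCB4.1*. The exception for *GLK2* was the fit without *gis5* replicate 3. Those where *LHCB4.1* was not under 0.05 were quantile normalization, the replicate block and leaving out any 1 array except WT replicate 2.

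Arrays with the same replicate number had correlations of their deviations of −0.06, −0.00028 and −0.04. These values cannot tell whether such arrays shared growth, harvest or hybridization, which was not tested. With the replicate block the log2 ratios of *GLK1*, *GLK2* and *LHCB4.1* were −0.53, −0.52 and −0.39 (unadjusted p = 0.0332, 0.0440 and 0.0956 from limma), and 0 probe sets passed an adjusted p of 0.05. None of the named genes passed an adjusted p of 0.05 without the block either, so no such call could change. With the block, chlorophyll synthesis genes lower at an unadjusted p under 0.05 in limma numbered 0 instead of 2. For photosystem subunits this count was 0 instead of 1, and for chloroplast regulators it stayed at 3.

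The count of probe sets at an adjusted p under 0.05, 1 in the reported setting, was 0 in limma without any 1 array (lowest 0, highest 0, with 489 to 835 lower and 1050 to 1529 higher at an unadjusted p under 0.05) and 0 with a pseudocount of 1. It was 43 with a pseudocount of 64, 109 among probe sets above the median signal, 145 with a trended and robust variance and 3 without moderation. With arrays centred on their medians, 1133 probe sets were lower at an unadjusted p under 0.05 instead of 696 and 968 higher instead of 1363, and among those above the median signal, where fewer were tested, 904 were higher instead of 1363. The median log2 ratio of chlorophyll synthesis genes was −0.22 after quantile normalization, −0.33 with arrays centred, and between −0.28 and −0.23 without any 1 array. Quantile normalization gave −0.20 for antenna genes and −0.10 for photosystem subunits. The difference between the changes of *GLK1* and *GLK2* lay between −0.17 and 0.10 without any 1 array and changed sign without *gis5* replicate 1, *gis5* replicate 2 or WT replicate 2. The other 3 differences kept their sign.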
